A study of Mus musculus with 6 samples.

Results

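The genes described here encode enzymes and regulators of cholesterol and fatty acid synthesis: Hmgcs1, Sqle, Fdft1, Insig1 and Srebf2 on the sterol side, and Acaca, Fasn and Scd1 on the fatty acid side. Every probe set whose platform annotation gave exactly 1 symbol, and that symbol was 1 of these 8, was taken. This gave 18 of the 45101 probe sets of the array, and 8 of 8 genes had at least 1 probe set bright enough to be tested. Transcripts were measured in stellate ganglia, the paired sympathetic ganglia that send nerve fibres to the heart. The mice had undergone transverse aortic constriction (TAC), which narrows the aorta and loads the left ventricle with pressure, or a sham operation. All were male C57/Bl6 mice sampled 8 weeks after surgery, and no transgene or further treatment is given for either group. There were 3 TAC and 3 sham arrays, marked A, B and C in the titles, and each array carried RNA from both ganglia of 1 animal.

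Cells build cholesterol from acetyl-CoA through mevalonate, isoprenoids, squalene and lanosterol. The pathway is switched on as a set by the transcription factor that Srebf2 encodes, which the proteins of Scap and Insig1 hold in the endoplasmic reticulum while sterols are plentiful. Fatty acid synthesis also starts from acetyl-CoA, and its enzymes are driven mainly by the product of the related gene Srebf1. In nervous tissue both neurons and glia use these lipids for membranes and myelin, and fat cells use the same fatty acid enzymes to make stored fat.

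The stretches upstream of 4 members are shown for the 3 short motifs that were searched in them. RefSeq windows of mouse build GRCm38.p6 were found for 5 of the 8 members, and the 250 bases before the transcript start are given 5′ to 3′ on the gene's strand. Capitals mark matches on either strand to TCACNCCAC, a core of the sterol regulatory element, to CCAAT, bound by the factor NF-Y, and to GGGCGG, bound by Sp1. The lines stand for Hmgcs1 at chr13:119690101-119690350 (plus strand), Insig1 at chr5:28071162-28071411 (plus strand), Srebf2 at chr15:82147019-82147268 (plus strand) and Fasn at chr11:120824548-120824797 (minus strand).
Hmgcs1: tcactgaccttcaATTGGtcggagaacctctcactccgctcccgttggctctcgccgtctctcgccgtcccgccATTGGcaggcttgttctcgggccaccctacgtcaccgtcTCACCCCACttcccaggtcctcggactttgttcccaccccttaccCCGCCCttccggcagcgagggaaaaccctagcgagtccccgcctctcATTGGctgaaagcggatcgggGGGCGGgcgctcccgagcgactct
Insig1: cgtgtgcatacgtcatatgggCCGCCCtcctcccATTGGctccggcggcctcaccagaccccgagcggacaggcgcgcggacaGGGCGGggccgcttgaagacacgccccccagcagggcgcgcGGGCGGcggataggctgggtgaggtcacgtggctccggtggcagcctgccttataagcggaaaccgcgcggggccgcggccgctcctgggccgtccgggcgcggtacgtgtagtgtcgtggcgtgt
Srebf2: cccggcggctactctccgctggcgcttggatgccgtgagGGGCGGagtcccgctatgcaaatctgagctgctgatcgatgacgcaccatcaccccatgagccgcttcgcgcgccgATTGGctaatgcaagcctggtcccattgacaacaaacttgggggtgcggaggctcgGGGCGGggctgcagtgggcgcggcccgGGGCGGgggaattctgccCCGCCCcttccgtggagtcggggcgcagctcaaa
Fasn: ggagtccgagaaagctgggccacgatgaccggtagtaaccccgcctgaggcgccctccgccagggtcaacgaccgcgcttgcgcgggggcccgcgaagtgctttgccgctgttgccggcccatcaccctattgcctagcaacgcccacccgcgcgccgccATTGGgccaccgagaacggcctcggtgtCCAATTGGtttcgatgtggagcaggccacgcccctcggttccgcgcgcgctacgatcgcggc
The sterol element occurred once among these windows, as TCACCCCAC at positions -137 to -129 from the Hmgcs1 start. Over all 32851 RefSeq windows of this length, 1.05% held it, 33.8% held CCAAT and 32.7% held GGGCGG. Hmgcs1 had 3 CCAAT and 2 GGGCGG matches, Insig1 had 1 and 3, and Srebf2 had 1 and 4. Fasn had 3 CCAAT matches, of which a pair on opposite strands overlapped by 2 bases, and 0 GGGCGG matches. The fifth window, that of Acaca, held 0 matches to the 3 motifs. Its GC content was 39.2%, against 64.8% to 72.8% in the 4 windows shown. Whether the start of this window is one used in the ganglion was not tested. A match describes letters only and does not show that a factor was bound. Only exact matches within 250 bases were searched, so a gene without a match may still have a variant or more distant site.

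The values were GCRMA probe set intensities taken to the log2 scale, and the group difference, TAC minus sham, was fitted with limma. Probe sets whose mean over the 6 arrays was under 4 on the log2 scale were called dim and were not tested, which left 17550 probe sets. Of the 18 member probe sets 14 were tested and 4 were dim. Limma called 0 of the 14 at an adjusted p under 0.05, where it called 0 of all 17550 (0%). At an unadjusted p under 0.05 there were also 0 of the 14, where 9.08% of all tested probe sets passed (6.03% higher and 3.05% lower in TAC). By the sign of the mean alone, 7 of the 14 were higher in TAC, where 56.1% of all tested probe sets were. The arrays correlated at 0.98 to 0.994 with each other over the tested probe sets. An exact permutation test of 3 arrays against 3 cannot give a p below 0.1. Because whole ganglia were measured, fewer cells of a type and less RNA per cell cannot be told apart.

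On the sterol side, the differences of the early and middle enzymes were small, and their TAC and sham arrays overlapped at all tested probe sets of Hmgcs1, Sqle, Fdft1, Insig1 and Srebf2. Hmgcs1 encodes the cytosolic HMG-CoA synthase, which feeds the rate-limiting step of the pathway. Its brightest probe set, 1433444_at, read 13.67, 13.61 and 13.79 on the log2 scale on TAC A, B and C, against 13.84, 13.63 and 13.65 on sham A, B and C. The group means were 13.69 ± 0.09 in TAC and 13.70 ± 0.12 in sham (SD, n = 3 each), a log2 difference of -0.013 with a 95% interval of -0.24 to 0.21. This interval corresponds to a fold between 0.846 and 1.16. The probe sets 1433445_x_at and 1433443_a_at differed by 0.00017 (95% interval -0.22 to 0.22) and 0.09 (-0.16 to 0.34).

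The fourth tested Hmgcs1 probe set gave a wider difference. On 1433446_at the values were 11.05, 11.14 and 11.28 on the TAC arrays, against 11.14, 10.91 and 10.60 on the sham arrays. TAC C lay above every sham array, TAC B level with the highest of them, sham A, and TAC A between sham A and sham B. The log2 difference was 0.27 (SE 0.15, 95% interval -0.09 to 0.63, limma adjusted p = 0.588), and it was 0.13 without sham C and 0.40 without sham A. The fifth Hmgcs1 probe set, 1441536_at, was dim, with log2 values of 3.57 to 3.87 in TAC and 3.41 to 3.79 in sham. Probe sets of 1 gene can read different stretches or transcript forms, and a name ending in _x_at marks probes that may also bind other transcripts.

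Fdft1 and Sqle encode the enzymes that commit the pathway to sterols: squalene synthase joins farnesyl units into squalene, and squalene epoxidase oxidises it. Sqle read 10.90, 11.06 and 11.08 on TAC A, B and C and 10.95, 11.00 and 10.84 on sham A, B and C, so that TAC B and C were just above the highest sham array. Its log2 difference was 0.09 (SE 0.09, 95% interval -0.13 to 0.30, limma adjusted p = 0.751). It was 0.14 without TAC A, 0.05 without TAC C, 0.04 without sham C and 0.02 without both sham C and TAC B. Fdft1 was read by 2 tested probe sets that pointed in opposite directions. The brighter 1438322_x_at averaged 12.84 ± 0.11 in TAC and 12.88 ± 0.11 in sham, and 1448130_at averaged 11.96 ± 0.12 in TAC and 11.83 ± 0.10 in sham (SD, n = 3 each). Their log2 differences were -0.04 and 0.12, with standard errors of 0.097 and 0.098.

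By the brightest probe set of each gene, Srebf2 had the smallest difference of the 8 members. The probe set 1452174_at read 8.58, 8.56 and 8.62 on the TAC arrays and 8.59, 8.61 and 8.54 on the sham arrays. The SD was 0.03 in TAC and 0.04 in sham, the arrays of both groups were interleaved, and the log2 difference was 0.0030 (95% interval -0.17 to 0.17). On the second probe set, 1426744_at, TAC C was highest at 8.09 while TAC A and B, at 7.64 and 7.58, were below every sham array. Its difference was -0.03 (95% interval -0.41 to 0.34).

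Insig1, whose protein retains the sterol factors in the endoplasmic reticulum and whose transcript is itself a target of them, had the largest difference of the tested member probe sets. It read 9.52, 10.11 and 10.03 on TAC A, B and C, against 9.83, 9.30 and 9.54 on sham A, B and C. TAC B and C were above every sham array, and TAC A lay below sham A and just below sham C. The means were 9.89 ± 0.32 in TAC and 9.55 ± 0.27 in sham (SD, n = 3 each), or 1.26-fold. The 95% interval of the log2 difference of 0.33 ran from -0.16 to 0.82, and limma gave an adjusted p of 0.615. The difference was 0.52 without TAC A (limma adjusted p = 0.450), but 0.22 without TAC B, 0.20 without sham B and 0.21 when sham C and TAC B were both dropped.

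**Figure D1:**
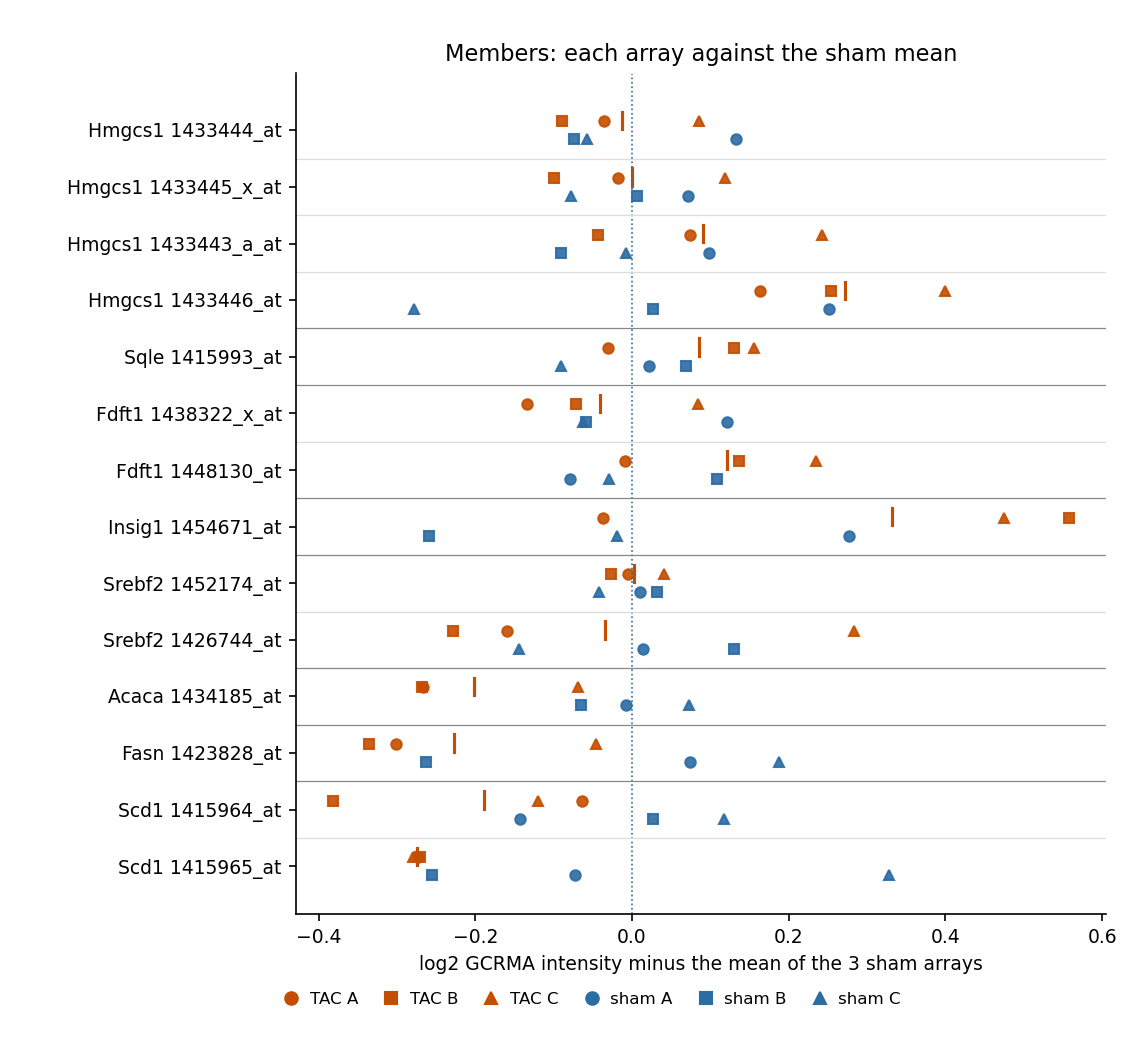
Log2 intensity of the 14 tested member probe sets on each array, minus the mean of the 3 sham arrays; circles, squares and triangles are arrays A, B and C, TAC in orange above sham in blue, and the orange bar is the TAC mean. Groups overlap everywhere except at Acaca and at Scd1 1415965_at, and Insig1 has its highest values on TAC B and C.

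On the fatty acid side, all 4 tested probe sets of Acaca, Fasn and Scd1 had lower means in TAC, by 0.19 to 0.27 on the log2 scale, and none passed. Acaca encodes acetyl-CoA carboxylase, which makes malonyl-CoA and limits the rate of fatty acid synthesis. Its probe set 1434185_at read 8.37, 8.37 and 8.57 on the TAC arrays, against 8.63, 8.58 and 8.71 on the sham arrays. The groups did not overlap, but TAC C, at 8.57, all but met sham B, at 8.58. The difference was -0.20 (SE 0.09, 95% interval -0.42 to 0.02), or 0.870-fold, with a limma adjusted p of 0.553 and an exact permutation p of 0.1, the smallest possible. Without sham C and TAC B it was -0.13. Of the 14 tested member probe sets, 2 had groups that did not overlap, both lower in TAC. Over all tested probe sets 8.85% had TAC wholly below sham and 9.02% wholly above, 17.9% in all.

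Fasn encodes fatty acid synthase, which builds palmitate. It read 10.01, 9.98 and 10.27 on TAC A, B and C and 10.39, 10.05 and 10.50 on sham A, B and C. TAC A and B were below every sham array and TAC C lay within the sham range. The log2 difference was -0.23 (SE 0.15, 95% interval -0.58 to 0.12, limma adjusted p = 0.627), and it was -0.13 without sham C, -0.36 without sham B and -0.08 when both sham C and TAC B were dropped.

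Scd1 encodes stearoyl-CoA desaturase, which turns saturated into monounsaturated fatty acids. Its brighter probe set 1415964_at read 12.30, 11.98 and 12.25 on the TAC arrays and 12.22, 12.39 and 12.48 on the sham arrays. TAC B was the lowest of the 6, and the other TAC arrays lay within the sham range. The difference was -0.19 (SE 0.12, 95% interval -0.47 to 0.10, limma adjusted p = 0.622), and it was -0.09 without TAC B, and -0.03 with sham C also left out. The second probe set, 1415965_at, read 5.92, 5.92 and 5.92 on the TAC arrays and 6.12, 5.94 and 6.52 on the sham arrays. The groups did not overlap, and the TAC SD of 0.004 was far under the sham SD of 0.30. The difference of -0.27 (limma adjusted p = 0.589) became -0.11 when sham C was left out.

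The other 3 dim probe sets, 2 of Fdft1 and 1 of Acaca, lay at 1.78 to 2.20 on the log2 scale on all 6 arrays. In each of them the TAC arrays all lay under the sham arrays, with a difference of -0.03. The same held for 71.6% of all 27487 dim probe sets of the array (72% without overlap in either direction), so the separation is not particular to Fdft1 or Acaca. The TAC SDs of these 3 probe sets, 0.002 to 0.003, were close to the 0.004 of Scd1 1415965_at. Whether the TAC values of that Scd1 probe set lie at a background level was not tested.

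Adipose transcripts were unevenly spread over the arrays. Adipoq, the fat cell hormone adiponectin, read 5.81, 8.04 and 6.24 on TAC A, B and C and 6.91, 6.34 and 9.01 on sham A, B and C. The brown fat gene Ucp1, whose protein uncouples respiration to make heat, read 3.72, 6.82 and 3.60 on the TAC arrays and 3.98, 4.64 and 8.53 on the sham arrays. Both were highest on sham C and next on TAC B. Of 12 fat genes listed, 6 had a tested probe set, and all 6 had lower means in TAC. Their summed intensity was 1857 to 5879 on the TAC arrays and 2461 to 9489 on the sham arrays.

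Fasn, Acaca and both Scd1 probe sets were highest on sham C, the array with most fat transcript. By contrast, Fasn and the brighter Scd1 probe set were lowest on TAC B, which had the second most. Acaca had its lowest values, 8.37, on both TAC A and TAC B. With a fat score of Adipoq and Ucp1 as a covariate, limma called 0 probe sets, as it did without it. The log2 differences were then -0.20 for Fasn, Acaca and the brighter Scd1 probe set, and -0.19 for Scd1 1415965_at. Without the covariate they were -0.23, -0.20, -0.19 and -0.27. The Insig1 difference was 0.37 with the covariate and 0.33 without it. Thrsp, a lipogenic gene typical of fat and liver, read 6.60, 7.81 and 6.93 on the TAC arrays and 6.98, 7.06 and 8.84 on the sham arrays. On this brightest probe set the order at the top was that of Adipoq. On 1422973_a_at, with a difference of -1.02, sham C was again highest, at 7.61, but sham B was next, at 6.73, and TAC B read 6.54. The sum of 5 measured satellite glia markers of 6 listed was lowest on TAC B, at 12322, against 17029 and 18012 on TAC C and TAC A and 17787 to 20433 on the sham arrays. Fabp7, by far the brightest of the 5, read 13.76, 13.11 and 13.73 on the TAC arrays and 14.08, 13.89 and 13.80 on the sham arrays. S100b and Kcnj10 were also below every sham array on TAC B, whereas Cdh19 was above every sham array there, at 11.21, and Sox10 was lowest on sham A, at 9.37. Skeletal muscle markers, of which 3 of 6 were measured, summed to 179, 60.4 and 59.1 on TAC A, B and C and to 344, 40 and 993 on sham A, B and C. All 3 (Myh4, Acta1 and Ckm) had lower means in TAC, and sham C and sham A, the arrays highest in them, were also the highest for Fasn and Acaca. The part of fat, glial or muscle cells in the Fasn, Acaca and Scd1 values was not tested.

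**Figure D2:**
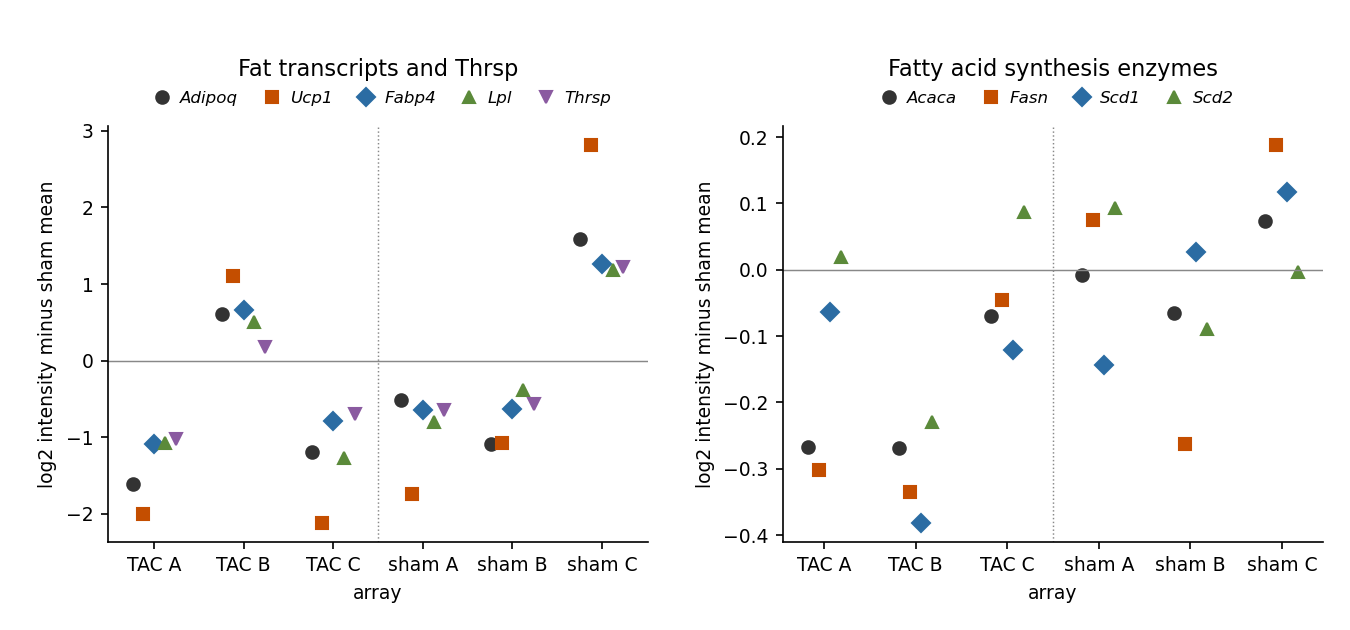
Log2 intensity minus the sham mean on each array for 4 fat transcripts and Thrsp (left) and for 4 fatty acid synthesis enzymes (right), 1 point per gene and array. Fat transcripts are highest on sham C and TAC B. Fasn, Acaca and Scd1 are highest on sham C. Fasn, Scd1 and Scd2 are lowest on TAC B, and Acaca is about equally low on TAC A and TAC B. The vertical scales of the panels differ.

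The whole cholesterol pathway was followed with a list of 20 enzymes, 17 of which had a tested probe set, the brightest standing for each gene. Of these 17, 14 had a higher mean in TAC and 3 a lower one, with a median log2 difference of 0.10. Over all 9955 tested genes the median was 0.02 and 55% had a higher mean. Limma called 0 of the 17, and 0 had an unadjusted p under 0.05, where 8.76% of all tested genes did. In 0 of the 17 were the groups without overlap, where 17.9% of all tested genes were (8.78% higher and 9.09% lower in TAC).

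The larger differences were in enzymes other than Hmgcs1, Sqle and Fdft1. Lss, the cyclase that makes lanosterol, read 8.90, 9.47 and 9.52 on the TAC arrays and 9.05, 8.40 and 8.83 on the sham arrays, a log2 difference of 0.54 (SE 0.23, 95% interval -0.01 to 1.09, limma adjusted p = 0.549). Cyp51, the demethylase of lanosterol, differed by 0.35, and a second probe set of it by 0.59. Idi1, the isomerase of isopentenyl diphosphate, differed by 0.33, and the mevalonate pathway kinase Pmvk by 0.32. Among later steps, the methylsterol oxidase Msmo1 differed by 0.27, Sc5d by 0.27 and Hsd17b7 by 0.26. A less bright Hsd17b7 probe set, 1448865_at, had every TAC array (5.69 to 6.78) above every sham array (5.10 to 5.43), with a difference of 1.01 (limma adjusted p = 0.516). Members near 0 were Fdps at 0.016 and Dhcr7 at 0.0053, and Tm7sf2 was lower by 0.15. With all 28 tested probe sets of the list counted, 25 had a higher mean in TAC, where 56.1% of all tested probe sets did, and 1 was wholly above sham, where 9.02% were.

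The TAC arrays did not behave alike over this list. The median distance from the sham mean was -0.07 on TAC A, 0.15 on TAC B and 0.37 on TAC C, against 0.08, 0.05 and -0.09 on sham A, B and C. TAC C was above every sham array in 13 of 17 genes (76.5%) and TAC B in 9 (52.9%), but TAC A in 1 (5.88%). For all tested genes these shares were 30.3% on TAC C, 33.6% on TAC B and 26% on TAC A. TAC A was below every sham array in 6 of the 17 (35.3%), where 24.1% of all tested genes were.

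Leaving out TAC A moved the count of the list, although not its adjusted calls. Without that array 7 of the 17 genes had an unadjusted p under 0.05, all of them higher. Of all 9955 tested genes 633 passed as higher, and 10.2% passed in either direction. TAC A was the TAC array lowest over this list, so it was picked from the same values that were then counted. The rise in the count is therefore no support for a difference. The 7 were Pmvk, Idi1, Lss, Cyp51, Msmo1, Hsd17b7 and Sc5d, with log2 differences of 0.41 to 0.74. Their limma adjusted p-values were 0.413 to 0.432 and 0 were called. Without sham C and TAC B together, 0 of the 17 passed at the unadjusted threshold and the median was 0.04. The fat marker sum was lowest on TAC A, at 1857, and next lowest on TAC C, at 2139, the array highest for these enzymes. Fabp4 was by far the brightest gene in that sum. By brightest probe sets, Adipoq, Cidea and Fabp4 were lowest on TAC A, and Ucp1, Lpl and Cox8b on TAC C. The sympathetic neuron marker sum (7 of 8 genes measured) was 87885 to 93259 on the TAC arrays and 74077 to 82084 on the sham arrays, with TAC A the lowest of the TAC arrays. By gene, 3 of the 7 had TAC wholly above sham, where 8.78% of all tested genes did. These were Npy (by 0.77), Slc18a2 (0.29) and Th (0.24). Dbh and Phox2a differed by 0.03 and 0.05, and Slc6a2 and Hand2 by -0.10 and -0.02. Over the 13 tested probe sets, 3 were wholly above sham and 1 wholly below, where 9.02% and 8.85% of all were. The 1 below was Slc6a2 1447311_at, at -0.37. Npy read 14.38 to 14.65 in TAC and 13.61 to 13.87 in sham, so much of the gap in the sum is that of Npy. The part of fat cells and neurons in the values of the enzymes was not tested.

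**Figure D3:**
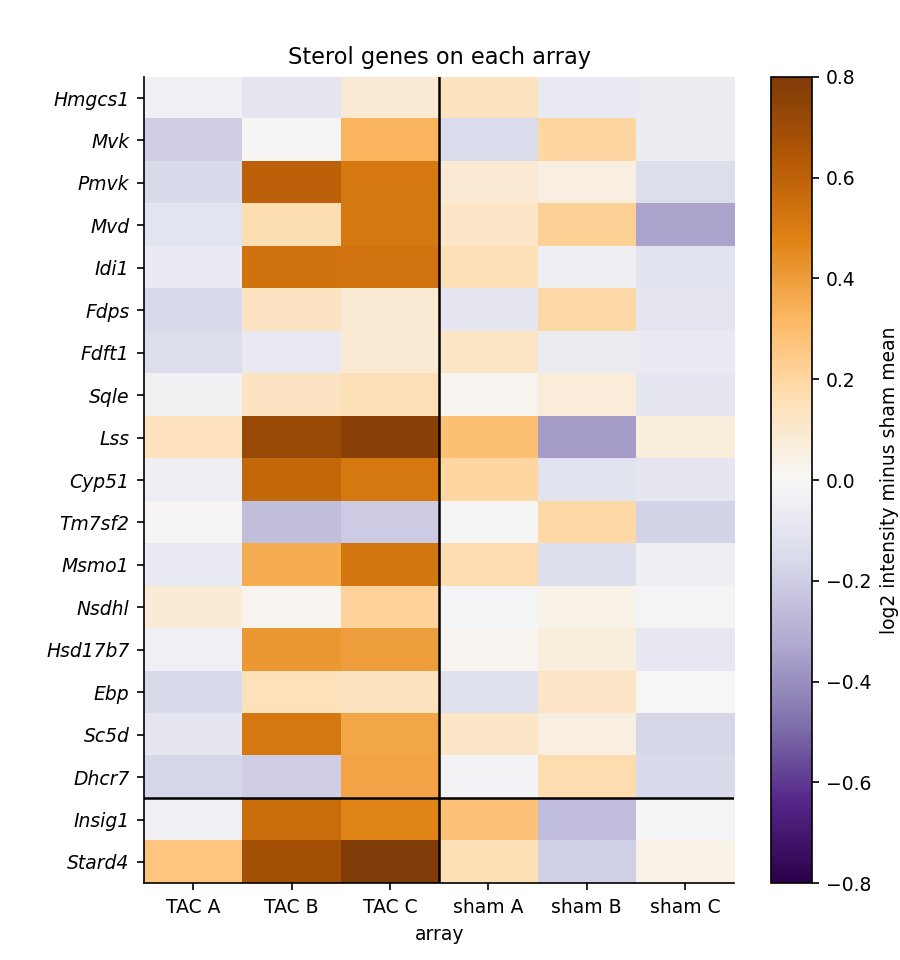
Log2 intensity minus the sham mean for the brightest probe set of 17 cholesterol synthesis enzymes in pathway order, and below the line for Insig1 and Stard4, on each array. Orange is above and violet below the sham mean; TAC B and C are orange for many enzymes, from Pmvk to Sc5d, and TAC A is close to the sham arrays.

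Regulators of the pathway were followed with 10 listed sterol-sensing genes, of which 8 were measured. Their median log2 difference was 0.10, where that of all tested genes was 0.02. The means of 7 were higher and of 1 lower in TAC, where 55% of all tested genes had a higher mean. At an adjusted p under 0.05 limma called 0, where it called 0% of all tested genes. At an unadjusted p under 0.05 there were also 0, where 8.76% of all tested genes passed. After Insig1 the largest differences were in Mylip, a ubiquitin ligase that degrades lipoprotein receptors, at 0.26 (limma adjusted p = 0.657), and in Insig2, the second retention protein, at 0.13. Srebf1 differed by 0.10 and the escort protein gene Scap by -0.04. The proteases that release the factors, encoded by Mbtps1 and Mbtps2, differed by 0.06 and 0.09.

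Among 14 listed genes of cholesterol uptake, transport and efflux, 10 were measured, with a median of 0.03. Stard4, a carrier that moves sterol between membranes, read 9.98, 10.40 and 10.51 on the TAC arrays, against 9.87, 9.52 and 9.75 on the sham arrays, with every TAC array above every sham array. The log2 difference was 0.58 (SE 0.16, 95% interval 0.19 to 0.98, unadjusted p = 0.011 and limma adjusted p = 0.516). It was the only gene of the 10 with an unadjusted p under 0.05, where 5.43% of all tested genes were higher and 3.32% lower at that threshold. A second Stard4 probe set was wholly above sham too, by 0.74, and another differed by 0.54 with TAC A inside the sham range. Abca1, the cholesterol efflux pump, was 0.25 higher with groups that did not overlap, and Abcg4 was 0.28 lower, also without overlap. A second Abcg4 probe set, 1427732_s_at, differed by -0.06 with groups that overlapped. Of the 10 genes 2 were wholly above sham and 1 wholly below, where 8.78% and 9.09% of all tested genes were. Apoe, a lipid carrier made largely by glia, read 12.87, 12.55 and 12.68 on the TAC arrays and 12.88, 12.86 and 12.98 on the sham arrays, lowest on TAC B, where the glial markers Fabp7, S100b and Kcnj10 were lowest too, but not Cdh19 or Sox10. Abca1, Abcg4 and Apoe had limma adjusted p-values of 0.556 to 0.573. The lipoprotein receptor gene Vldlr differed by 0.41 on its brightest probe set but by -0.06 to 0.17 on 3 others, and Npc1, which releases cholesterol from lysosomes, by -0.25.

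The fatty acid synthesis list held 23 genes, of which 20 were measured. The median log2 difference was -0.03, with 14 means lower and 6 higher in TAC, where 55% of all tested genes had a higher mean. Limma called 0, with 0 at an unadjusted p under 0.05, where 8.76% of all tested genes passed. Over all 40 tested probe sets of the list, 2 were lower at that threshold (1 each of Fads2 and Elovl1), 5 were wholly below sham and 1 wholly above, where 3.05%, 8.85% and 9.02% of all tested probe sets were. The groups did not overlap in Acaca and in Acly, the citrate lyase that supplies acetyl-CoA, and both were lower in TAC. This is 2 of 20, where 9.09% of all tested genes were wholly lower. For Acly the difference was -0.07 on the brightest probe set, while 2 other probe sets stood at 0.04 and 0.28. Acss2, which makes acetyl-CoA from acetate, differed by 0.30 (limma adjusted p = 0.612). Scd2, the desaturase typical of nervous tissue, differed by -0.04, and the desaturase gene Fads1 by 0.04. Fads2 differed by -0.16 on its brightest probe set, and by -0.47 and 0.25 on the others. Acacb, the carboxylase linked to fatty acid breakdown, differed by 0.11. By brightest probe sets, elongase genes lay between -0.14 for Elovl5 and 0.10 for Elovl4. Other probe sets of Elovl1 differed by -0.22 and 0.77, and those of Elovl7 by -0.30 to -0.11.

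Genes of fatty acid breakdown were set beside those of synthesis. Of 14 listed, 12 were measured, and 10 had a lower mean in TAC and 2 a higher one, where 55% of all tested genes had a higher mean. The median was -0.08, against 0.02 over all tested genes, and 0 had an unadjusted p under 0.05, where 8.76% of all tested genes did. The mitochondrial enzyme genes Hadha and Acadm differed by -0.16 and -0.15, and Acaa2 by -0.23. Cpt1c and Cpt2, of the carnitine transferase family, differed by -0.15 and -0.12, and the carnitine carrier gene Slc25a20 by -0.09. Limma adjusted p-values in this list were 0.619 to 0.972. Over all 20 tested probe sets of the list, 2 were lower at an unadjusted p under 0.05, where 3.05% of all tested probe sets were, 1 each of Cpt1a (-0.26) and Ppara (-0.42), whose brightest probe sets differed by -0.05 and -0.08.

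**Figure D4:**
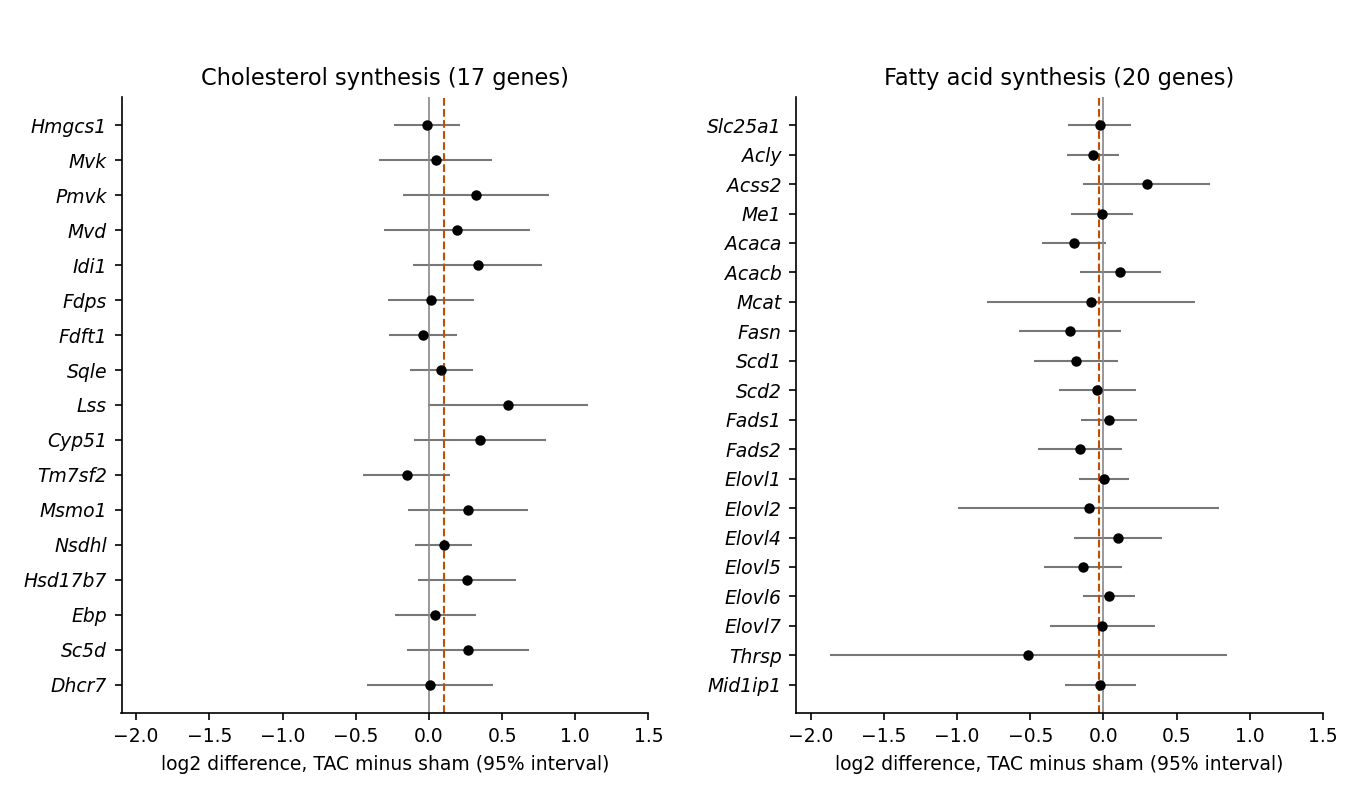
Log2 difference, TAC minus sham, with limma's 95% interval for the brightest probe set of each gene of cholesterol synthesis (left, 17 genes) and fatty acid synthesis (right, 20 genes). The dashed line is the list median, 0.10 on the left and -0.03 on the right, and every interval includes 0.

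Averaged over their brightest probe sets, the 5 sterol members deviated from their mean over all arrays by -0.09, 0.06 and 0.13 on TAC A, B and C and by 0.08, -0.09 and -0.09 on sham A, B and C. The 3 fatty acid members deviated by -0.11, -0.23 and 0.02 on the TAC arrays and by 0.08, 0.0025 and 0.23 on the sham arrays. Among 9857 genes outside the lists, those most like the sterol average over the 6 arrays were Frs3 (Pearson r = 0.988), Asic2 (0.982), B4galt7 (0.977), Rad9a (0.97) and Olfml2b (0.965). Those most like the fatty acid average were Irak1 (0.994), Ppt2 (0.989), Hexa (0.986), Ints9 (0.983) and Sipa1l3 (0.973). A correlation over 6 points is imprecise, and r exceeded 0.95 for 10 genes of the first comparison and 13 of the second. The likeness is a description of these arrays.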

How the data were processed

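Total RNA from stellate ganglia of 3 TAC and 3 sham mice was reverse-transcribed, labelled with biotin and hybridised to Affymetrix mouse GeneChip arrays (labels' protocols). Per the submitters' processing notes the authors used GCRMA, which corrects background, normalizes and summarises probes, and they deposited linear intensities. No version or setting of it is known here. Log2 of the deposited intensity was taken with no pseudocount. With no detection call to filter on, 27487 probe sets with a mean log2 under 4 were not tested, and 64 controls were dropped. Symbols came from GEO's platform annotation, and probe sets with several symbols were not named.

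The difference TAC minus sham was fitted with limma 3.58.1 in R 4.3.3 (lmFit and eBayes, two-sided) over 17550 probe sets, with Benjamini-Hochberg adjustment over all of them and a threshold of 0.05. The number of arrays limits the precision. Members, lists and tests were chosen with earlier results of these data known. All member probe sets are named, with the 6 further genes of smallest p in each pathway list and, for likeness, the 5 genes of highest correlation outside all lists; Sc5d, Fdps, Dhcr7, Tm7sf2, Scd2, Fads1, Elovl1, Elovl4, Elovl7, Cpt1a, Ppara, Mir670hg, Sst and the second probe sets of listed genes were picked with their values known. The fit was tested on simulated data. Alternatives covered the floor, normalization, variance model, array weights, a block, a fat covariate, a pseudocount, the mean of all probe sets and arrays left out. Figures were drawn with matplotlib 3.10.9.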

Additional observations from a re-analysis of the deposited data

How the results depend on the processing

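Limma called 0 member probe sets and 0 genes of the lists of cholesterol synthesis, sterol sensing, cholesterol transport and fatty acid synthesis under each alternative run. Over the whole array the count of 0 became 0 to 1 with 1 array left out, Mir670hg without TAC B and Sst without TAC C, and stayed 0 otherwise. Directions held for Insig1, Sqle, Acaca, Fasn, both Scd1 probe sets, 1448130_at of Fdft1, and 1433446_at and 1433443_a_at of Hmgcs1. Members near 0 changed sign. With array weights the differences were 0.038 for Hmgcs1 1433444_at, 0.012 for Fdft1 1438322_x_at and 0.14 for Srebf2 1426744_at. Quantile normalization gave -0.011 for Hmgcs1 1433445_x_at and -0.015 for Srebf2 1452174_at, median centring -0.046 and -0.043, and the fat covariate -0.037 and -0.013. For Srebf2 1452174_at, leaving out both fat-rich arrays gave -0.0034. Leaving out 1 array at a time gave -0.063 to 0.053 for Hmgcs1 1433444_at, -0.059 to 0.050 for 1433445_x_at, -0.10 to 0.021 for Fdft1 1438322_x_at, -0.018 to 0.019 for Srebf2 1452174_at and -0.19 to 0.062 for 1426744_at.

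The cholesterol synthesis count at an unadjusted p under 0.05, 0 as reported, was 1 with a floor of 6, quantile normalization, median centring, the trend and robust fit, array weights and the pseudocount, and 0 to 7 when 1 array was dropped (7 without TAC A). The sterol-sensing count was 0 to 1 with 1 array left out, and its median of 0.096 ran from 0.019 to 0.175 over all alternatives. The transport count of 1 was 2 with median centring and with the fat covariate, and 0 without the 2 fat-rich arrays. It was 1 to 3 when 1 array was dropped (3 without TAC A, 2 without TAC C or sham C). Of the 3 without TAC A, 1 was higher in TAC (Stard4) and 2 were lower (Npc1 and Apoe). The share of all tested genes passing was 10.2% without TAC A and 5.12% without the 2 fat-rich arrays. The transport median of 0.034 was -0.011 with median centring and -0.0068 to 0.058 with 1 array left out. The fatty acid synthesis count of 0 was 1 with no floor and with median centring, and 0 to 1 with 1 array left out; its median ran from -0.086 to 0.016 over all alternatives. The cause of these changes was not tested. Where arrays were left out, their number was also smaller.

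No pairing of the arrays by title letter was seen, but the check cannot decide whether the letters mark pairs. Deviations of same-letter arrays from their group means correlated at 0.084, -0.0031 and -0.17. Those of different-letter arrays correlated at -0.13 to 0.14. Deviations from the mean of so small a group are tied to each other, which limits what these values can show. With the letter as a replicate block limma called 0 probe sets, and the Acaca difference of -0.20 had an adjusted p of 0.602.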
